A study of Mus musculus with 18 samples.

Results

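Retinas in which dual leucine zipper kinase (DLK) had been deleted were compared with retinas that kept it, both after crush of the optic nerve, to ask how the transcriptional response to axon injury differs without this kinase. By the treatment labels the comparison used 8 of the 18 arrays of the series, 5 from Cre-positive crushed retinas and 3 from Cre-negative crushed retinas. All mice, the controls included, carried DLK lox/lox, the floxed alleles of Map3k12, and all were given tamoxifen at 10 to 12 weeks of age. Cre-positive mice also carried CAG Cre-ERT, a Cre recombinase that tamoxifen switches on, under a promoter that works in many tissues, so that recombination was not limited to one retinal cell type. According to the labels most retinal DLK was lost in Cre-positive mice, and the small amount that stayed varied between animals. Whole retinas were taken 3 days after crush. Uncrushed retinas of both genotypes, 5 Cre-positive and 4 Cre-negative, served as the uninjured state, and the labels do not say which crushed and uncrushed retinas came from the same mouse. One array whose title calls it uncrushed and whose description calls it crushed was left out. The labels do not state that arrays of a group came from separate mice, so p-values measure the spread between these samples only.

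Retinal ganglion cells are the neurons whose axons form the optic nerve. DLK is a mitogen-activated kinase kinase kinase found in axons, which upon injury activates JNK and, through it, transcription factors such as c-Jun and ATF3 in the cell body. In injured neurons the pathway is known both for switching on genes linked to axon regrowth and for driving cell death. A second arm of the neuronal stress response, the integrated stress response, works through the transcription factors ATF4, ATF5 and CHOP and raises genes for amino acid synthesis, amino acid uptake and tRNA charging.

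Each array was hybridised with retinal RNA in Cy5 and a universal mouse reference RNA in Cy3. Each value below is a log2 ratio of Cy5 over Cy3, so that a difference of 1 is a 2-fold difference of that ratio. An offset of 50 was added to both channels before the ratio was taken, which shrinks differences at dim spots, so folds there are understated. On the 8 crushed arrays Cy5 was well above background at 69.0% to 75.5% of probes, and no spot was saturated. Replicates correlated across genes at r of 0.987 to 0.995 in Cre-positive crushed and 0.990 to 0.995 in Cre-negative crushed retinas. The mean of 17 rod markers lay 6.17 to 6.34 above the reference, the level of retina on all crushed arrays. Cre-positive crushed replicate 5 stood apart from its group: its lens gene mean was 1.31 against 0.28 to 0.37 in the other 4, and its gliosis gene mean was -0.22 against -0.89 to -0.78. Without it 247 genes were called in the comparison below in place of 299, and the lists and genes on which it stood out are given with and without it. The number of arrays limits the precision of every value.

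Map3k12, the targeted gene, measured 1.94, 1.91, 2.34, 1.84 and 2.14 in the 5 Cre-positive crushed retinas and 2.59, 2.32 and 2.61 in the 3 Cre-negative ones. One Cre-positive array, replicate 3, reached the range of the controls, and the other 4 lay below it. The difference was -0.47 ± 0.12 (SE), or 72.1% of the control level, with an adjusted p of 0.0596 in limma and p = 0.054 in a two-sided exact permutation test over 56 splits, whose smallest possible p is 0.018. Without replicate 3 the difference was -0.55 with a limma adjusted p of 0.0171. In uncrushed retinas the difference was of like size, -0.43 ± 0.11 (SE), and did not pass after adjustment over all genes (limma adjusted p = 0.881). The uncrushed groups did not overlap, at 1.77 to 2.17 in Cre-positive and 2.21 to 2.58 in Cre-negative retinas. The place of the probe relative to the deleted part of the gene is not given in the sources used here, so the probe is a weak check of the deletion. The gene of the sister kinase LZK, Map3k13, showed a difference of 0.14 (exact permutation p = 0.18).

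Cre-ERT carries a hormone-binding domain of the estrogen receptor, and an Esr1 probe marked the genotype on every array. It read 3.16, 3.07, 2.70, 3.12 and 3.30 in Cre-positive crushed retinas and -0.61, -0.60 and -0.69 in Cre-negative crushed ones, where it was not well above background. The groups were 3.31 apart at their closest. As a bound, Cre-positive crushed retinas were at least 14.7-fold higher in Cy5. A second Esr1 probe differed by -0.15, and which of the probes lies in the transgene was not tested.

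After crush, 299 of 25374 genes tested differed between the genotypes (1.18%) at a limma adjusted p under 0.05, of which 158 were higher (0.623%) and 141 lower (0.556%) in Cre-positive retinas. At least 2-fold differences were found for 11 higher and 17 lower genes. The median difference over all genes tested was 0.0087. In the integrated stress response list 11 of 27 genes were lower and in the axon injury list 9 of 29, with none higher. Of the ganglion cell lists 5 of 14 transcription factors and 9 of 17 other markers were higher, with none lower. The count of 299 depended on the control arrays: it was 194 without Cre-negative crushed replicate 1 and 167 without replicate 2, and the higher genes numbered 98, 73 and 89 without replicates 1, 2 and 3 of that group. The split of 47.2% lower genes became 67.4% lower with Agilent's processed signals and 62.8% with slide as a block.

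The integrated stress response was the stress pathway with the most lower genes. Of 27 measured members 11 were lower and none was higher, and 26 of the 27 differences were negative with a median of -0.26. Chac1, which encodes an enzyme that breaks down glutathione and is a target of ATF4 and CHOP, had the largest fall of any named gene. It measured -0.77, -1.04 and -0.97 in Cre-negative crushed retinas and -3.00, -3.11, -2.66, -2.56 and -2.60 in Cre-positive crushed ones. The groups were 1.52 apart at their closest, and the difference was -1.86 ± 0.13 (SE; limma adjusted p = 1.05e-07), a 3.62-fold lower level. Uncrushed retinas lay at -3.50 to -3.39 in Cre-negative and -3.46 to -2.87 in Cre-positive mice. The crush response of Chac1 was 2.51 without Cre and 0.49 with it, and the latter did not pass (limma adjusted p = 0.0539). These crush responses share the crushed arrays with the genotype comparison, here and for every gene below, and are given beside it as values only.

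Ddit3, which encodes CHOP, measured 0.31, 0.33 and 0.24 in Cre-negative crushed and -0.40, -0.44, -0.63, -0.29 and -0.45 in Cre-positive crushed retinas. Of the 5 Cre-positive values 4 lay inside the range of the uncrushed arrays, -0.75 to -0.37, and replicate 4 lay just above it. The genotype difference was -0.73 ± 0.09 (SE; limma adjusted p = 4.95e-05). The other transcription factors of the pathway were lower too, Atf5 by -0.74 and Atf4 by -0.59. Trib3, the pseudokinase that feeds back on ATF4, differed by -0.67, and Gdf15, a secreted stress cytokine, by -0.85.

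Metabolic members of the pathway were lower too. Asns, asparagine synthetase, was lower by -0.65 ± 0.07 (SE). Phgdh, the entry enzyme of serine synthesis, was lower by -0.61 ± 0.06 on the probe used and by -0.66 on a second probe. Mthfd2, of mitochondrial folate metabolism, differed by -0.48, the cationic amino acid transporter Slc7a1 by -0.64, and the tRNA export factor Xpot by -0.26. Sesn2 and Ddit4, 2 further stress targets in the list, measured differences of -0.03 and -0.01 and did not pass. Cebpb at -0.49 (adjusted p = 0.255) and the cystine transporter Slc7a11 at -0.38 (adjusted p = 0.136) did not pass either.

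As a list, the pathway placed every Cre-positive crushed retina between the uninjured and the injured controls. Its mean was -1.13, -1.15 and -1.14 in Cre-negative crushed retinas and -1.59, -1.58, -1.54, -1.57 and -1.45 in Cre-positive crushed ones, against -1.78 to -1.67 over all uncrushed arrays. The groups did not overlap. The count of lower members was 9 to 12 when any single array was left out, and 11 without Cre-positive crushed replicate 5.

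Enzymes that charge tRNAs in the cytosol gave 4 lower genes of 20 and none higher, with a list median of -0.13. The count was 2 without Cre-positive crushed replicate 1 and without Cre-negative crushed replicate 1 or 2, and 1 with the 8 crushed arrays alone. Sars, seryl-tRNA synthetase, measured 0.14, 0.06 and 0.09 in Cre-negative crushed and -0.30, -0.34, -0.32, -0.26 and -0.35 in Cre-positive crushed retinas. The groups did not overlap, and the latter values were close to those of uncrushed retinas, -0.48 to -0.33. The difference was -0.41 ± 0.05 (SE; limma adjusted p = 4.46e-05). Gars and Cars were lower by -0.37 and -0.36, and Nars narrowly by -0.40 (adjusted p = 0.0454). The calls of Gars and Cars were lost in 2 and 8 of 33 other settings.

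Chaperones of the endoplasmic reticulum, the targets of XBP1 and ATF6, showed no such shift. Of 20 measured, 1 was lower and 1 was higher, with a median of -0.04. Hspa5, which encodes BiP, was lower by -0.31 (adjusted p = 0.044) and Pdia3 higher by 0.40 (adjusted p = 0.028), and the calls were lost in 20 and 10 of 33 other settings. Without Cre-positive crushed replicate 5 Pdia3 was not called (adjusted p = 0.0652). Among 12 cytosolic heat shock proteins Hspb1, the small chaperone HSP27, was lower by -0.51 ± 0.09 (SE; limma adjusted p = 0.0052).

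Genes known from injured axons formed the other large block. Of 29 measured members of the axon injury and regeneration list 9 were lower and none higher. Sox11, a transcription factor of developing and regrowing neurons, measured 1.97, 1.85 and 1.91 in Cre-negative crushed and -0.08, -0.23, 0.11, 0.04 and 0.48 in Cre-positive crushed retinas. No values overlapped, and uncrushed retinas lay lower still, at -1.26 to -0.89. The difference was -1.84 ± 0.11 (SE; limma adjusted p = 1.22e-08), and a second probe gave -1.83. Crush raised Sox11 by 2.93 without Cre and by 1.13 with it.

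Ecel1, an endopeptidase of damaged neurons, measured 4.49, 4.55 and 4.51 in Cre-negative crushed and 2.46, 2.50, 3.02, 3.18 and 3.32 in Cre-positive crushed retinas. It differed by -1.62 ± 0.15 (SE; limma adjusted p = 4.36e-06), yet Cre-positive crushed retinas stayed above the uncrushed ones, which lay at 0.69 to 1.15. Crush raised it by 3.47 without Cre and by 2.08 with it. The reference channel moved with the retinal one at this spot: the mean Cy5 signal was 12300 in Cre-negative and 1390 in Cre-positive crushed retinas, while Cy3, the same reference RNA everywhere, read 276 and 62.1. With Cy5 alone the difference was -3.42, and with Agilent's processed ratio it was -0.97 and lost its call (adjusted p = 0.113).

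Sprr1a, whose proline-rich product is made by regrowing axons, measured -0.78, -0.77 and -1.11 in Cre-negative crushed and -2.65, -2.95, -2.49, -2.58 and -2.40 in Cre-positive crushed retinas. The latter group lay within the span of uncrushed retinas, -3.48 to -2.02, but the top of that span was a single array. It was Cre-positive uncrushed replicate 4, and the next highest uncrushed array read -2.89. All Cre-positive crushed arrays but replicate 2 lay above -2.89. Uncrushed replicate 4 also had the highest mean of cornea, iris and ciliary body markers in its group (-0.829, group median -2.27), and a link was not tested. The difference was -1.73 ± 0.19 (SE; limma adjusted p = 2.64e-05). The related Sprr2g differed by -1.61 and was well above background on only 2 of the 5 Cre-positive crushed arrays.

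Other lower members of the list were Tnfrsf12a, the receptor of the cytokine TWEAK, at -1.29, and Adcyap1, which encodes the neuropeptide PACAP, at -1.12. Adcyap1 was -0.85 and not called with Agilent's processed signals (limma adjusted p = 0.3). The transcription factor Klf6 differed by -0.60, the neurotrophin Bdnf by -0.51 and the tubulin-binding Stmn4 by -0.21. The neuropeptide gene Nts passed as lower too, but it was not well above background on any Cre-positive crushed array and has only a bound there. The growth-cone gene Gap43 was not called: it measured 3.84, 3.61 and 3.84 in Cre-negative crushed and 3.57, 3.44, 3.89, 3.54 and 3.57 in Cre-positive crushed retinas. Those values overlapped, with a difference of -0.16 ± 0.10 (SE; limma adjusted p = 0.497). Tuba1a at 0.13, Basp1 at -0.13 and Arg1 at 0.00 were not called either.

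The list mean was 0.41, 0.32 and 0.34 in Cre-negative crushed and -0.02, -0.11, 0.06, -0.02 and 0.10 in Cre-positive crushed retinas, against -0.31 to -0.20 over uncrushed arrays. Each of the 3 states kept to its own range. With the array of disagreeing labels set among the Cre-negative uncrushed retinas the lower members numbered 3 in place of 9, and the calls of Sox11, Sprr1a, Ecel1, Atf3 and Adcyap1 were lost (adjusted p of 0.0565 to 0.185). The differences of these genes kept their size there, from -1.84 for Sox11 to -1.12 for Adcyap1.

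**Figure D1:**
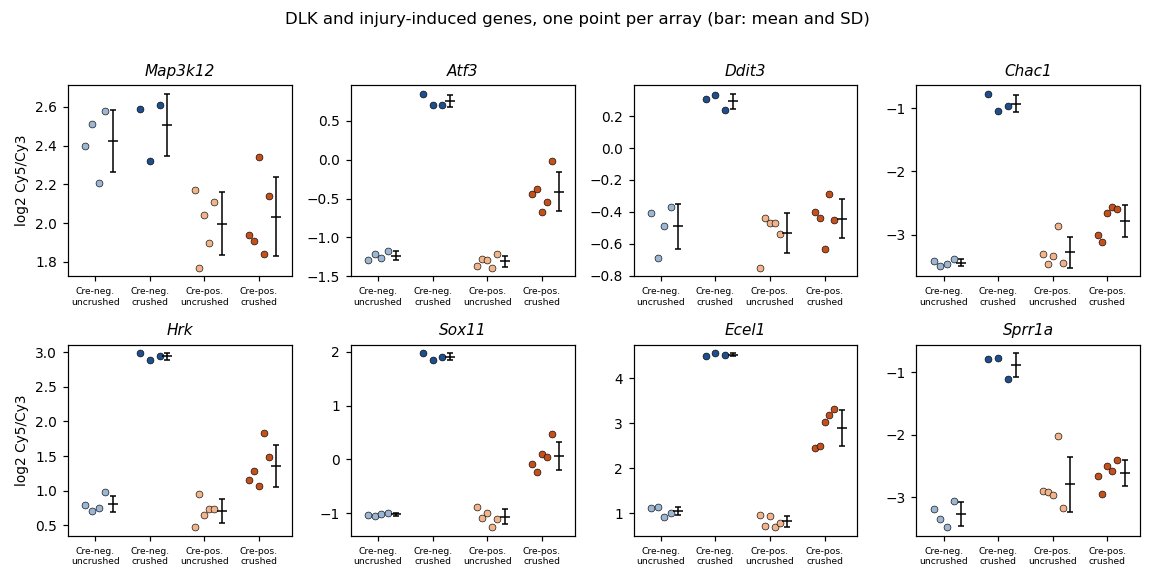
Log2 Cy5/Cy3 of Map3k12, of the stress genes Atf3, Ddit3 and Chac1, of the death gene Hrk and of the injury genes Sox11, Ecel1 and Sprr1a on each of 17 arrays, grouped by genotype and crush, with the mean and SD of each group as bars. Cre-negative crushed retinas (dark blue) lie above all other groups in every panel but that of Map3k12, while Cre-positive crushed retinas (dark orange) range from the uncrushed level, as for Ddit3, to an intermediate one, as for Ecel1 at 2.46 to 3.32.

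Among 17 genes of the AP-1 and ATF families of transcription factors, 3 were lower and none was higher. Atf3 measured 0.85, 0.71 and 0.71 in Cre-negative crushed and -0.44, -0.38, -0.67, -0.55 and -0.01 in Cre-positive crushed retinas. The groups were 0.71 apart at their closest, and both lay above uncrushed retinas at -1.39 to -1.17. The difference was -1.17 ± 0.10 (SE; limma adjusted p = 1.41e-06). Replicate 5, the array with the high lens mean, had the highest Atf3 of its group. Without it the Atf3 difference was -1.27, and on its slide alone -0.71.

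Jun itself, the gene of c-Jun, was not called. It measured -0.98, -1.52 and -0.80 in Cre-negative crushed and -1.44, -1.41, -2.09, -1.14 and -1.56 in Cre-positive crushed retinas, with overlap and a difference of -0.43 ± 0.21 (SE; limma adjusted p = 0.375). Maff (-0.38, adjusted p = 0.0492) and Fosl2 (-0.53, adjusted p = 0.0498) passed narrowly and lost their calls in 21 and 23 of 33 other settings, and a second Fosl2 probe gave -0.08. Among 10 immediate early genes 9 differences were negative, with 1 call, the synaptic gene Arc at -0.46 ± 0.07 (SE; limma adjusted p = 0.00064). The early growth response gene Egr1 differed by -1.05 without passing (adjusted p = 0.454), and the list mean ranged from -0.81 to -0.26 in the 3 Cre-negative crushed retinas alone. None of 16 genes of the DLK and JNK cascade and none of 10 MAP kinase phosphatases was called.

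Cell death genes gave 1 lower member of 23. Hrk, which encodes a BH3-only protein that opposes BCL2 in neurons, measured 2.98, 2.89 and 2.94 in Cre-negative crushed and 1.15, 1.28, 1.07, 1.83 and 1.48 in Cre-positive crushed retinas, with no overlap. Uncrushed retinas lay at 0.47 to 0.98. The difference was -1.58 ± 0.13 (SE; limma adjusted p = 9e-07). The spot's mean Cy3 reading was 51.5 in Cre-negative and 20.7 in Cre-positive crushed retinas beside Cy5 of 1140 and 223. Hrk differed by -2.71 with Cy5 alone, and with Agilent's processed ratio it was -0.47 and not called (adjusted p = 0.567).

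Bbc3, the gene of the BH3-only protein PUMA, measured -0.72, -0.82 and -0.89 against -1.33, -1.19, -1.03, -1.20 and -1.04 and did not pass, although the groups did not overlap (-0.35 ± 0.09, SE; limma adjusted p = 0.0596). The effector gene Bax differed by 0.04 and was not called. Of 17 p53 targets 2 were lower. Cdkn1a, the cell cycle inhibitor p21, differed by -0.93 on the probe used and by -0.01 on a second probe, so the gene's direction rests on a single probe.

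The redox genes Srxn1 and Hmox1 were the lower members among 13 NRF2 targets, whose median was 0.01. Hmox1, heme oxygenase, passed narrowly (-0.23, limma adjusted p = 0.0481) and lost its call in 22 of 33 other settings. Srxn1, sulfiredoxin, which restores oxidised peroxiredoxins, measured 2.28, 2.10 and 2.23 in Cre-negative crushed and 1.12, 1.12, 1.37, 1.17 and 1.38 in Cre-positive crushed retinas. The latter lay close to uncrushed retinas at 0.79 to 1.21, and the difference was -0.97 ± 0.08 (SE; limma adjusted p = 6.42e-07). Other NRF2 targets such as Nqo1 at 0.13 and Gclm at 0.07 were not called.

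Among the largest falls were several genes outside these lists. Gm13889, a predicted gene, measured 5.85, 5.67 and 5.78 in Cre-negative crushed and 3.90, 3.78, 4.15, 3.98 and 4.07 in Cre-positive crushed retinas, a difference of -1.79 ± 0.08 (SE; limma adjusted p = 2.82e-10). Colec10, a collectin, differed by -1.74, and it was not well above background on any uncrushed array, so that crush raised its Cy5 signal at least 4.81-fold in Cre-negative retinas. Cox6a2, the muscle-type subunit of cytochrome c oxidase, differed by -1.36, and Fibin, a secreted protein, by -1.14.

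Stbd1, a glycogen-binding protein, measured -2.19, -2.39 and -2.28 in Cre-negative crushed and -3.35, -3.45, -3.44, -3.33 and -3.37 in Cre-positive crushed retinas. The latter values were within or below the range of uncrushed retinas, -3.36 to -3.17. The crush response of Stbd1 was 1.04 without Cre and -0.16 with it, where it did not pass. Ucn, the stress peptide urocortin, differed by -0.99 on the ratio and by -2.57 with Cy5 alone.

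Promoter sequences are shown for 6 lower genes, to set the elements known to bind ATF4 with C/EBP partners and AP-1 beside stress and injury genes that hold them. The 6 were picked because they hold a match, and promoters of Sox11, Ecel1, Tnfrsf12a, Gdf15 and Phgdh, also lower, held none of the 3 motifs searched. Each is the 250 bases before the gene's start in RefSeq on GRCm38.p6, written 5′ to 3′ on the gene's strand. Capitals mark matches to TGATGNAA, the ATF4-C/EBP composite element, in the first 4, and to TGANTCA, the AP-1 element, in the last 2. The positions are chr2:119350992-119351241 (plus strand) for Chac1, chr1:191183334-191183583 (minus) for Atf3, chr5:118169514-118169763 (plus) for Hrk, chr6:7693210-7693459 (minus) for Asns, chr3:92485882-92486131 (minus) for Sprr1a and chr2:152105274-152105523 (plus) for Srxn1.
Chac1: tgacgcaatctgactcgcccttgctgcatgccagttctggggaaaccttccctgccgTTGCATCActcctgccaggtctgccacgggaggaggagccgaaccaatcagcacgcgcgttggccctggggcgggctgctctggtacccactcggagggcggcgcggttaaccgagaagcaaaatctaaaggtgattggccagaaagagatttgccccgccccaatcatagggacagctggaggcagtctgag
Atf3: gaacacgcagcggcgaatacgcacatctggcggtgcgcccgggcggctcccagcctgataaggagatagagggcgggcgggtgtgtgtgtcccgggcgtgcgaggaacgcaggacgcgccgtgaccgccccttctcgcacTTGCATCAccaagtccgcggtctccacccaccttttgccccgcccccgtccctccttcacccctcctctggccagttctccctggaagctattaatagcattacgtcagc
Hrk: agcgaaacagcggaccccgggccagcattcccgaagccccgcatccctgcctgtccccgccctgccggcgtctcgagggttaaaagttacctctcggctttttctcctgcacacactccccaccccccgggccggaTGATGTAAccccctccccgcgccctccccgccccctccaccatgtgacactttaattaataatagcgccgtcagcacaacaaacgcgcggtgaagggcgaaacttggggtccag
Asns: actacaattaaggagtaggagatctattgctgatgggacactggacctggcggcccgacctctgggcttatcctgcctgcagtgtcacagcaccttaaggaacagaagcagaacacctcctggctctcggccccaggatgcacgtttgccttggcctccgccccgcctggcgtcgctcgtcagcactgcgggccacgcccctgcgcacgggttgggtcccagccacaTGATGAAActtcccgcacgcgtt
Sprr1a: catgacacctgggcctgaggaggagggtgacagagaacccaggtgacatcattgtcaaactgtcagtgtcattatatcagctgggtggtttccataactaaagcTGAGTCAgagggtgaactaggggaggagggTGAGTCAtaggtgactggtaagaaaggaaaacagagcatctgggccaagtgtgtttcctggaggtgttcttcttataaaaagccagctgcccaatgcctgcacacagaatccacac
Srxn1: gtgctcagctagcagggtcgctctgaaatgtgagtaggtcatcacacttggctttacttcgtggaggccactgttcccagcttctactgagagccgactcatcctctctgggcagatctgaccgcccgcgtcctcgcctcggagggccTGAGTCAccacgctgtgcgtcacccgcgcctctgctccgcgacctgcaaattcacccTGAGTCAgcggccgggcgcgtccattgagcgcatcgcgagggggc

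Counted from the gene's start, the first base of the match lay at -193 in Chac1, -114 in Hrk, -110 in Atf3 and -23 in Asns. The matches in Chac1 and Atf3 read on the opposite strand of the gene. In Sprr1a the AP-1 matches began at -146 and -116, and in Srxn1 at -102 and -45. Each pair is spelled TGAGTCA.

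Over windows that also held 50 bases after the start and were searched on both strands, TGATGNAA was present for 14 of 88 lower genes with a RefSeq promoter (15.9%), for 2 of 96 higher genes (2.08%) and for 3.19% of all genes tested. TGANTCA was present for 16 of 88 lower genes (18.2%), 6 of 96 higher genes (6.25%) and 7.06% of genes tested. TGACGTCA, the cAMP response element, was present for 4.55% of lower, 4.17% of higher and 3.08% of tested genes. Over all 32851 promoter windows of that length the shares were 3.97%, 7.81% and 1.79% in the same order. Within the stress response list the ATF4 element was found for 3 of 11 lower members and for 3 of 13 members that were not called and had a promoter. A match is a description of the letters and not evidence of a binding site, and the shares were not tested.

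Genes that mark retinal ganglion cells made up the clearest group of higher genes. Crush lowered 6 of 14 ganglion cell transcription factors and 9 of 17 cytoplasmic and surface markers in Cre-negative retinas, against 0.808% of all genes tested, and raised none. Of 14 measured ganglion cell transcription factors 5 were higher and none lower, all 14 differences were positive, and the median was 0.24. In whole retina fewer cells of a type and less RNA per cell cannot be told apart, for this and every other cell type below.

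Pou4f2, which encodes the POU factor BRN3B, measured 2.62, 2.72 and 2.63 in Cre-negative crushed and 4.18, 4.33, 4.48, 4.33 and 4.38 in Cre-positive crushed retinas. No values overlapped, and uncrushed retinas lay at 4.06 to 4.97. The difference was 1.69 ± 0.14 (SE; limma adjusted p = 7.28e-07), or 3.22-fold, and the crush response was -1.77 without Cre and -0.37 with it, where it did not pass. With Agilent's processed signals the difference was 1.89 with an adjusted p of 0.156. Its relative Pou4f1, the gene of BRN3A, differed by 0.83 ± 0.11 (SE; limma adjusted p = 0.000133).

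Isl2, a LIM-homeodomain factor of a ganglion cell subset, measured 1.13, 1.05 and 0.94 in Cre-negative crushed and 2.45, 2.42, 2.65, 2.37 and 2.28 in Cre-positive crushed retinas. Uncrushed retinas lay at 2.58 to 2.83. The difference was 1.39 ± 0.08 (SE; limma adjusted p = 6.07e-09). The Iroquois factors Irx2 and Irx4 were higher by 1.14 and 1.03, although a second Irx2 probe gave 0.11 and the mean of both 0.62. Irx1 (0.32), Irx3 (0.60) and Eomes (0.15), which marks the intrinsically photosensitive class, did not pass, and neither did Isl1 at 0.08, which is also expressed in other retinal neurons.

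Cytoplasmic and surface markers gave 9 higher genes of 17 and none lower, with a median of 0.43. Rbpms2, an RNA-binding protein of ganglion cells, measured 0.72, 0.65 and 0.71 in Cre-negative crushed and 2.20, 2.14, 2.20, 2.05 and 2.01 in Cre-positive crushed retinas. Uncrushed retinas lay at 2.28 to 2.48, just above the Cre-positive crushed ones. The difference was 1.43 ± 0.06 (SE; limma adjusted p = 2.82e-10). Rbpms itself differed by 0.45.

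The nicotinic receptor subunits Chrna6 and Chrnb3 were higher by 1.06 and 0.77, the surface glycoprotein Thy1 by 0.39 and the neurite-promoting Nrn1 by 0.67. With Agilent's processed signals Chrna6 differed by 0.98 and was not called (limma adjusted p = 0.159). Intermediate filament genes were higher for Nefh (0.66), Nefl (0.48) and Prph (0.87), while Nefm measured 0.10 and was not called. Nefl turned to -0.01 with Agilent's processed signals, and its Cy5 signal was 8240 in Cre-negative and 14300 in Cre-positive crushed retinas. The crush response of Prph was -0.26 without Cre and 0.34 with it, and neither passed.

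Sncg, which encodes gamma-synuclein, measured 2.16, 2.15 and 2.15 against 2.37, 2.24, 2.42, 2.28 and 2.31. The groups did not overlap but the difference of 0.17 ± 0.05 (SE) did not pass (limma adjusted p = 0.111). At the Sncg spot mean Cy5 was 4930 in Cre-negative and 10500 in Cre-positive crushed retinas, with Cy3 at 638 and 1150. With Cy5 alone the difference was 0.90 and passed (adjusted p = 2.64e-06). Tubb3 at 0.43 (adjusted p = 0.169), Slc17a6, the vesicular glutamate transporter, at -0.14, and Opn4, melanopsin, at 0.11 were not called.

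**Figure D2:**
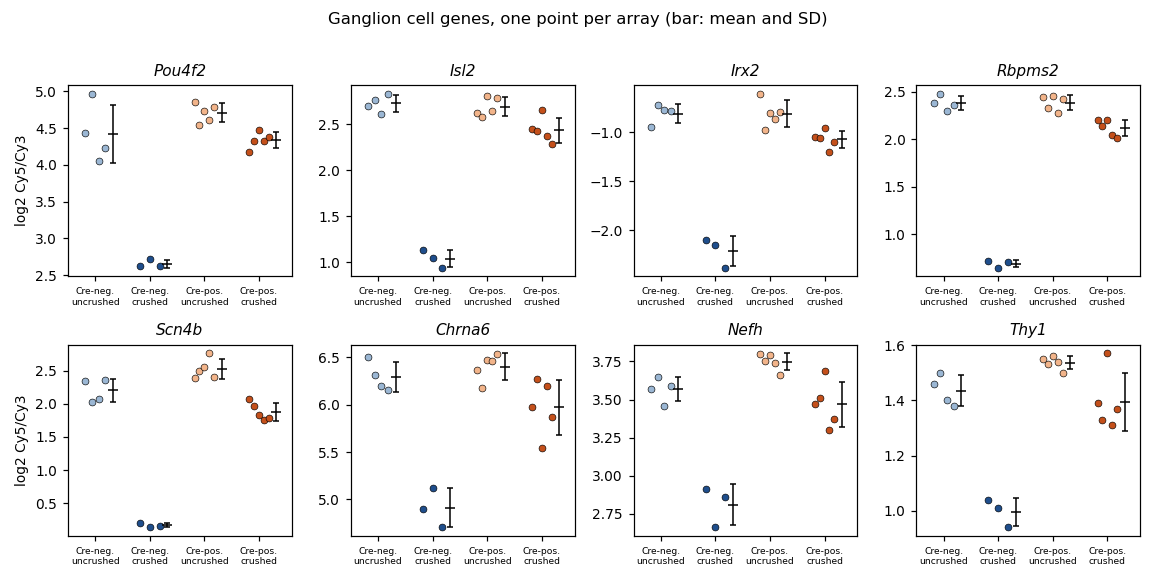
Log2 Cy5/Cy3 of the ganglion cell genes Pou4f2, Isl2, Irx2, Rbpms2, Scn4b, Chrna6, Nefh and Thy1 on each of 17 arrays, with group means and SDs as bars. In each panel the 3 Cre-negative crushed retinas (dark blue) lie below all other arrays, and the 5 Cre-positive crushed ones (dark orange) overlap the uncrushed groups or lie below them, as for Rbpms2 at 2.01 to 2.20 against 2.28 to 2.48.

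The ion channel list gave 3 higher genes of 24 and none lower. Scn4b, an auxiliary subunit of voltage-gated sodium channels, had the largest rise after Esr1. It measured 0.20, 0.14 and 0.16 in Cre-negative crushed and 2.07, 1.97, 1.83, 1.75 and 1.78 in Cre-positive crushed retinas. Uncrushed retinas lay at 2.02 to 2.76. The difference was 1.71 ± 0.10 (SE; limma adjusted p = 4.62e-09), and crush lowered Scn4b in both genotypes, by -2.03 without Cre and by -0.64 with it.

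The potassium channel genes Kcnd2 and Kcnc2 were higher by 0.92 and 0.41, and both lost their calls with Agilent's processed signals (adjusted p of 0.22 and 0.756). The channel subunits Scn1a (0.37), Scn2a (0.37), Scn2b (0.41) and Kcna2 (0.44) did not pass.

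Further rises of more than 0.90 outside the lists were found for Ctxn3, a cortexin membrane protein (1.70), the calcium buffer Pvalb (0.99), Tppp3, a tubulin polymerisation-promoting protein (0.97), the cytochrome P450 gene Cyp2s1 (0.94), the ryanodine receptor regulator Fkbp1b (0.94) and the uncharacterised 1110032F04Rik (1.01). Ctxn3 measured 0.97, 0.85 and 0.95 in Cre-negative crushed and 2.51, 2.47, 2.98, 2.58 and 2.58 in Cre-positive crushed retinas. Only 1 of the latter, replicate 3, exceeded the uncrushed range of 2.27 to 2.74. Second probes gave 1.61 for Pvalb and 0.40 for Fkbp1b, the same direction at another size.

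Without injury the genotypes differed far less. Of the 25374 genes 3 passed at a limma adjusted p under 0.05 (0.0118%), all of them higher in Cre-positive uncrushed retinas. They were Esr1, not well above background on any Cre-negative array, the muscle leiomodin Lmod3 (0.374) and an unnamed probe with the same limit as Esr1. Lmod3 and that probe are mentioned because the count is so small and were chosen after their values were seen. At an unadjusted p under 0.05 there were 1413 genes, against 3523 after crush. No member of the stress, injury or ganglion cell lists was called in uncrushed retinas, and the medians there were 0.04 for the stress response, 0.07 for axon injury and 0.02 for ganglion cell transcription factors.

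**Figure D3:**
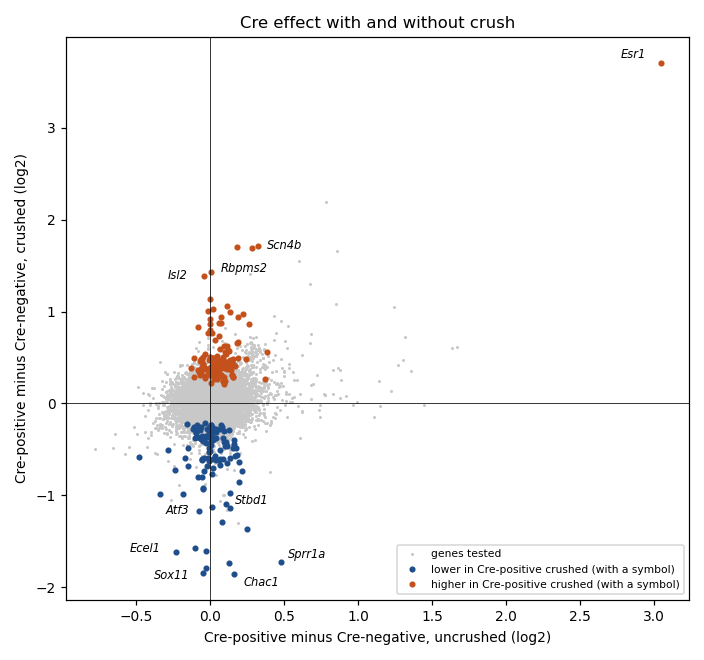
Difference between Cre-positive and Cre-negative retinas without crush (horizontal, log2) and after crush (vertical, log2) for each gene tested, in grey, with the called genes that have a symbol in blue (112 lower) and orange (133 higher). The called genes spread along the vertical axis, Chac1 from 0.16 uncrushed to -1.86 crushed and Scn4b from 0.32 to 1.71, and Esr1, which has only a bound, is plotted at its measured 3.05 and 3.71.

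The change of the genotype effect with crush was tested directly as the difference between the 2 contrasts. It passed for 106 genes (0.418%), 34 with a more positive and 72 with a more negative effect after crush. Among the 63 named genes it passed for 39. Strong negative ones were Sprr1a at -2.21, Chac1 at -2.02 and Sox11 at -1.80, and strong positive ones Ctxn3 at 1.52, Isl2 at 1.43 and Rbpms2 at 1.42. The Sprr1a value takes in Cre-positive uncrushed replicate 4, whose Sprr1a of -2.02 was far above the other uncrushed arrays. For Map3k12 it was -0.04 (adjusted p = 0.968). For Nefl (0.24, adjusted p = 0.408), Thy1 (0.29, adjusted p = 0.171) and Atf4 (adjusted p = 0.498) the change with crush did not pass although the crushed difference did. When the array of disagreeing labels was counted as Cre-negative uncrushed, 0 genes passed this test.

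Crush responses within each genotype, which share arrays with the comparisons above, passed for 545 genes without Cre (2.15%) and for 191 genes with it (0.753%). Every labelled uncrushed array lay at position 1 or 3 of its slide, and every labelled crushed array at position 2 or 4. Crush and position on the slide therefore cannot be told apart, here and wherever crushed and uncrushed retinas are compared. In Cre-negative retinas 340 genes rose (1.34%) and 205 fell (0.808%), and in Cre-positive retinas 169 rose (0.666%) and 22 fell (0.0867%). The group sizes differ, 3 against 4 arrays and 5 against 5, so the counts are not a comparison of the responses. Some crush responses were present in both genotypes. Cxcl10, a chemokine induced by interferon, rose by 2.34 without Cre and by 2.42 with it, with uncrushed signal well above background on only 1 of 4 and 2 of 5 arrays. Edn2, the endothelin of injured retina, rose by 1.87 and 1.39, and Gfap, the filament of reactive glia, by 0.77 and 0.81. The difference between these responses was 0.08 ± 0.45 for Cxcl10, -0.48 ± 0.25 for Edn2 and 0.04 ± 0.21 for Gfap (SE), none of which passed, and a p that misses the threshold does not show that the responses were alike. The Edn2 difference between crushed genotypes was 0.22, and 0.07 without Cre-positive crushed replicate 5, the highest array at 4.58. Between uncrushed genotypes it was larger, 0.70 ± 0.17 (SE), and did not pass (limma adjusted p = 0.881). Uncrushed Edn2 values did not overlap, at 2.27 to 3.04 in Cre-positive and 1.69 to 2.03 in Cre-negative retinas.

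Glial and immune lists contained no called gene after crush. They comprised 23 gliosis genes, 15 markers of Müller glia, 12 of astrocytes and oligodendrocytes, 21 of microglia and macrophages, 14 complement genes, 28 interferon-induced and antigen presentation genes, 14 chemokines and 9 markers of lymphocytes and neutrophils. Some immune genes outside these lists were called, and are named after their values were seen. H2-Ab1 (0.51, limma adjusted p = 0.0479), Cyth4 (0.49) and Lsp1 (0.37) were higher, and Mmp12 (-0.80) was lower. Gfap measured 1.31, 0.84 and 1.35 in Cre-negative crushed and 1.37, 1.76, 0.84, 1.26 and 1.69 in Cre-positive crushed retinas, with full overlap and a difference of 0.22 ± 0.16 (SE; limma adjusted p = 0.58).

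Many immune members leaned higher without passing. All 28 interferon genes had positive differences, with a median of 0.16, and 12 of 14 complement genes did, with a median of 0.34. The complement mean was 0.15, 0.02 and 0.09 in Cre-negative crushed and 0.18, 0.36, 0.45, 0.25 and 0.79 in Cre-positive crushed retinas. Replicate 5 was the highest array of its group for complement, interferon, microglia and gliosis genes. Without it the medians fell to 0.05 for interferon genes, 0.23 for complement, 0.10 for microglia and 0.01 for gliosis genes, with no gene called. Uncrushed retinas leaned the same way for interferon genes, with a median of 0.19. Csf1r and Ctss, both of microglia, came closest to passing at 0.50 each (adjusted p of 0.0576 and 0.0587). Without Cre-positive crushed replicate 1, 3 microglial markers and 1 complement gene passed.

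**Figure D4:**
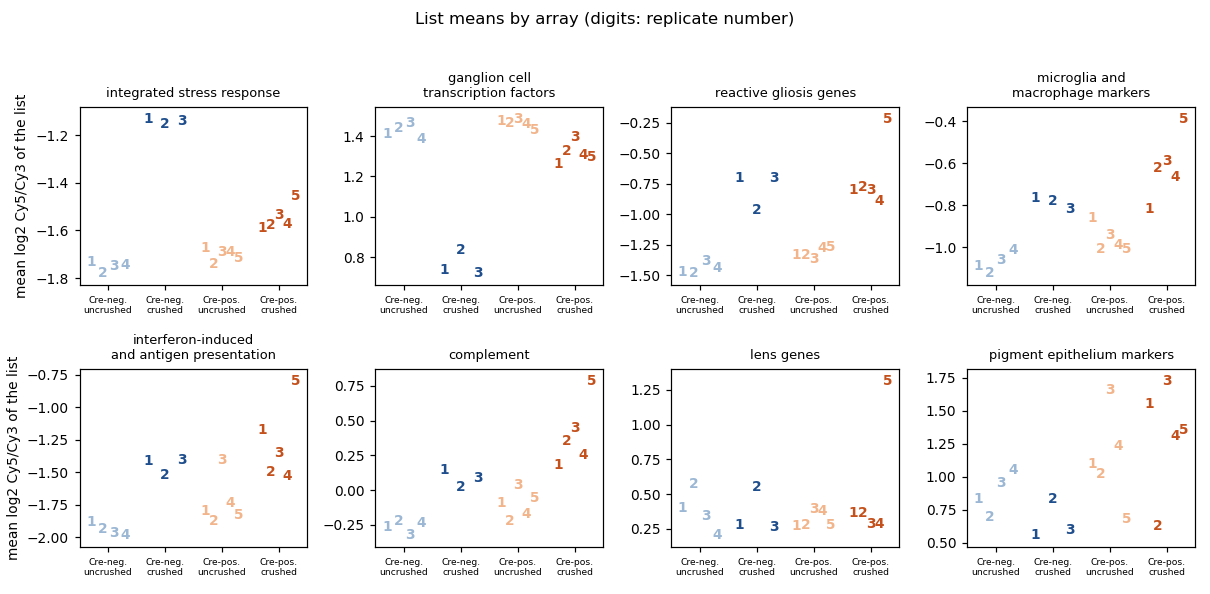
Mean log2 Cy5/Cy3 of 8 gene lists on each of 17 arrays, drawn as the replicate number within each genotype and crush group. The stress response and ganglion cell lists separate the crushed genotypes, at -1.15 to -1.13 against -1.59 to -1.45 and at 0.72 to 0.84 against 1.26 to 1.39, while Cre-positive crushed replicate 5 lies alone at the top for gliosis, microglia, interferon, complement and lens genes.

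Markers of other retinal neurons gave 1 called gene. None of 17 rod, 11 cone, 15 bipolar and 17 amacrine markers was called, and their medians were -0.043, 0.0077, 0.032 and -0.0011. Of 5 horizontal cell markers Calb1, calbindin, which amacrine and ganglion cells also hold, was higher by 0.31 (adjusted p = 0.0416), a call lost in 17 of 33 other settings. All 5 horizontal cell differences were positive with a median of 0.065, and the list mean was 0.21 to 0.24 in Cre-negative and 0.34 to 0.38 in Cre-positive crushed retinas, without overlap. Such separation was not particular to this list. Means of MAP kinase phosphatases (-0.266 to -0.184 against -0.455 to -0.367) and heat shock proteins (0.296 to 0.332 against 0.149 to 0.24) did not overlap. Nor did those of cell death genes, p53 targets, complement, or astrocyte and oligodendrocyte markers. Rod, cone, bipolar and amacrine means overlapped. Of 15 vascular markers Myh11, smooth muscle myosin, was higher by 0.34 (adjusted p = 0.0322), and it was -0.02 with Cy5 alone. Neither Calb1 nor Myh11 was called without Cre-positive crushed replicate 5.

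Tissue next to the retina varied between arrays. Of 15 pigment epithelium markers none was called, but 13 differences were positive and their median was 0.60, led by the melanin genes Dct (2.19, adjusted p = 0.0962), Mlana (1.66) and Tyrp1 (1.30). Their mean was 0.56, 0.84 and 0.60 in Cre-negative crushed and 1.55, 0.62, 1.73, 1.31 and 1.35 in Cre-positive crushed retinas, so 4 of 5 Cre-positive arrays exceeded the controls. Replicate 2, at 0.62, had a pigment epithelium mean within the range of the controls. Lens genes had a median of 0.15, which was -0.01 without replicate 5. Red blood cell genes had a median of -0.13 and cornea, iris and ciliary body genes one of -0.02. The part of these tissues in any other difference was not tested. Genes of cholesterol synthesis and of the cell cycle, 22 and 18 measured, were not called.

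**Figure D5:**
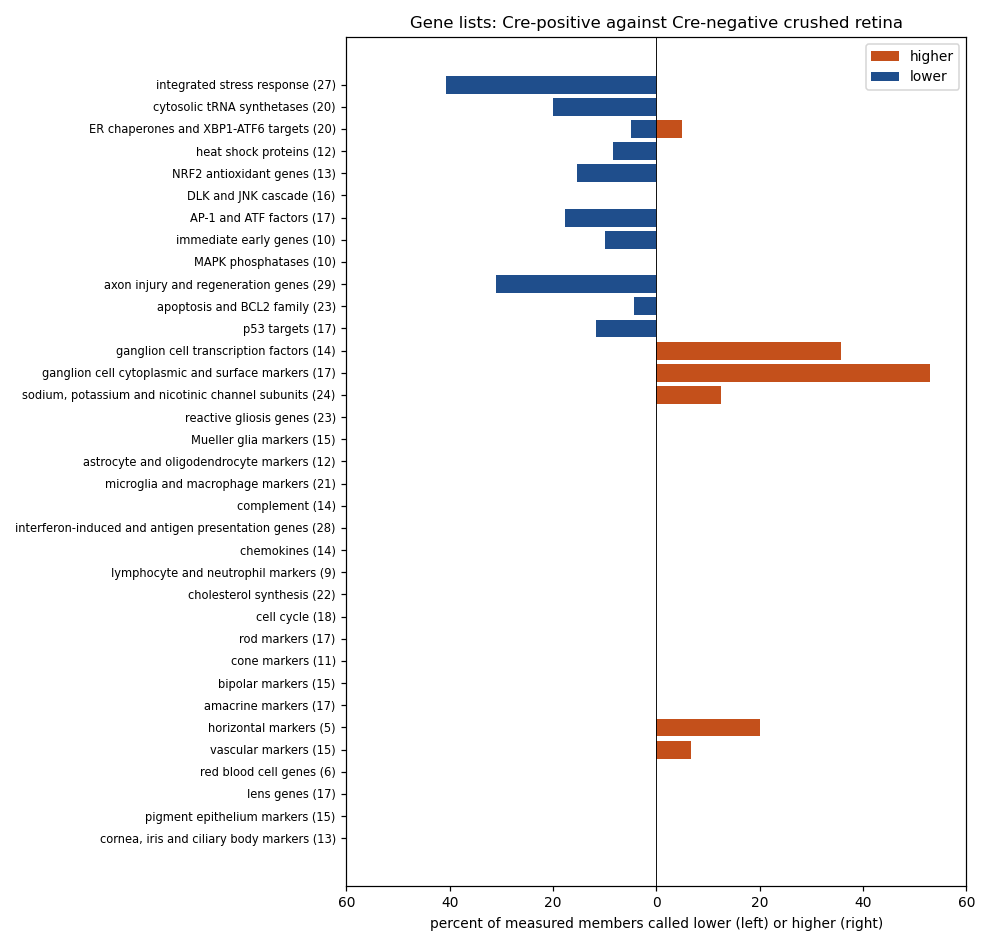
Percent of the measured members of each of 35 gene lists (number measured in parentheses) called lower (left, blue) or higher (right, orange) in Cre-positive than in Cre-negative crushed retinas at a limma adjusted p under 0.05. The most lower genes lie in the integrated stress response with 11 of 27 and axon injury with 9 of 29, and the most higher genes in the ganglion cell lists, with 5 of 14 and 9 of 17, against 0.556% lower and 0.623% higher over all genes tested.

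The arrays came from 5 slides, and crushed retinas of both genotypes shared 2 of them, with the Cre-positive array at position 2 and the Cre-negative array at position 4 of each. Of all labelled crushed arrays, Cre-positive replicate 3 and Cre-negative replicates 1 and 3 were at position 4, and the others at position 2. Within these pairs 298 and 299 of the 299 called genes had the sign of the pooled difference. The same arrays enter the pooled difference, so the pairs are not independent of it. Chac1 differed by -1.63 on slide 2 and by -2.23 on slide 3, Sox11 by -1.43 and -2.05, Pou4f2 by 1.75 and 1.56, and Rbpms2 by 1.30 and 1.48. The slide 2 pair includes Cre-positive crushed replicate 5. The stress response median was -0.13 on slide 2 and -0.32 on slide 3, and that of ganglion cell transcription factors 0.29 and 0.36. With slide as a block 145 genes were called, and 138 of them were among the 299.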

How the data were processed

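Whole retinal RNA (Cy5) and universal mouse reference RNA (Cy3) were measured on 18 2-colour Agilent arrays. The deposited intensity values are median pixel intensities of each spot and its local background, and Agilent's background-subtracted, dye-normalized processed signals, extracted with Feature Extraction 10.7.3.1 per the file headers. The authors' deposited table of log2 ratios served as an alternative.

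Here spots were corrected with normexp (offset 50) and loess-normalized within each array, spots of a probe were averaged, and the probe of highest mean intensity stood for a gene. Probes with Cy5 well above background on at least 3 arrays were kept, which gave 25374 genes, 16793 with a symbol. Cy3 is a common reference, so a difference of ratios is meant to compare Cy5 between arrays. Where Cy3 also moved, as at the Ecel1, Hrk, Sncg, Nefh and Pvalb spots, the ratio differed less between genotypes than Cy5 alone did. The ratio also differed less at dim spots with little move in Cy3. There Colec10 was -1.74 against -3.38 with Cy5 alone, Sprr2g -1.61 against -3.66 and Esr1 3.71 against 7.78. limma 3.58.1 (R 4.3.3) was fitted on 17 arrays with a mean for each of 4 groups, and two-sided p-values were adjusted by Benjamini-Hochberg over all genes with a threshold of 0.05. The planned spot intensity was taken as the median, the form the files hold. The fitting code was tested on simulated data.

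Named genes are the 15 largest rises and 15 largest falls, up to 3 called members of each list by adjusted p, and a fixed set, 63 in all. Other list members named in the text were chosen after their values were seen. Comparison, members and 35 gene lists were chosen with earlier results of these data known. Alternatives covered background correction, normalization, probe filter, probe choice, slide, side of the slide, array weights, the crushed arrays alone, the array with disagreeing labels and leaving out each array. List counts under these alternatives were added after seeing the data.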

Additional observations from a re-analysis of the deposited data

Results flagged for a closer look

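Among the 5 Cre-positive crushed arrays, the group for which this was tested, 7 of 98 sets of values for named genes and list means held 1 array far from the rest. Chance gives about 1 in 20, so the count is near what chance alone gives. The sets share arrays and some genes and are not independent. Replicate 3 was highest for Ctxn3 at 2.98, for Gap43 at 3.89 and for the mean of the DLK and JNK cascade at 1.58. Replicate 2 stood out for Arc at -1.80. Replicate 5 was highest for Edn2 at 4.58, for the gliosis mean at -0.22 and for the lens mean at 1.31. Replicate 3 is also the array with the highest Map3k12 of its group, and its weight of 0.4 in a fit with array weights was the lowest.

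The genotype effect differed between crushed and uncrushed retinas, by limma's test of the difference itself, for 106 genes, among them 39 of 63 named ones. Named stress response genes with a more negative effect after crush were Chac1 (-2.02), Gdf15 (-1.05), Ddit3 (-0.69) and Phgdh (-0.65). In the whole integrated stress response list 9 of 27 members passed, all with a more negative effect. Sars (-0.42), of the tRNA synthetases, and Hspb1 (-0.57), of the heat shock proteins, passed in the same direction. Such injury, AP-1 and death genes were Sprr1a (-2.21), Sox11 (-1.80), Sprr2g (-1.58), Hrk (-1.47), Ecel1 (-1.39), Tnfrsf12a (-1.37), Adcyap1 (-1.14) and Atf3 (-1.09). The p53 target Cdkn1a (-0.88) and the immediate early gene Arc (-0.58) passed too. Further ones were Colec10 (-1.87), Gm13889 (-1.76), Cox6a2 (-1.61), Fibin (-1.27), Stbd1 (-1.20), Srxn1 (-1.11) and Ucn (-0.80). Colec10 was not well above background on any uncrushed array and Sprr2g on only 1, so the sizes for these genes rest on values near background.

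A more positive effect after crush was found for the ganglion cell genes Isl2 (1.43), Rbpms2 (1.42), Pou4f2 (1.40), Irx2 (1.13), Irx4 (1.00), Chrna6 (0.95), Pou4f1 (0.91) and Nrn1 (0.48). It was also found for Ctxn3 (1.52), Scn4b (1.39), 1110032F04Rik (1.02), Kcnd2 (0.91), Cyp2s1 (0.87), Pvalb (0.86), Tppp3 (0.75) and Fkbp1b (0.75).

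The array whose title says uncrushed and whose description says crushed measured -1.03 for Chac1, 1.81 for Sox11 and 5.55 for Gm13889. Cre-negative crushed retinas lay at -1.04 to -0.77, 1.85 to 1.97 and 5.67 to 5.85 for these genes. The array is in no group of the comparisons as reported, and no group is given to it from these values. It enters a group only in the 2 alternatives that try each label.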

How the results depend on the processing

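Of 54 called named genes 29 were called in each of 33 alternatives and 25 lost the call in at least 1. Of the 8 named genes besides Map3k12 that were not called, 6 were called in none. Against 299 genes (158 higher, 141 lower) after crush, slide as a fixed block gave 145 (54 higher, 91 lower), side of the slide as a covariate 478 (279 higher), array weights 520 (281 higher, 239 lower), and the 8 crushed arrays alone 91 lower. Agilent's processed signals gave 70 higher genes, and 69 in place of 106 for the difference between crushed and uncrushed retinas. The array with disagreeing labels gave 261 higher genes as Cre-negative crushed. As Cre-negative uncrushed it gave 115 genes (54 higher, 61 lower) and 0 for the difference. The cause of these moves was not tested. In uncrushed retinas 1 gene in place of 3 was called with slide as a block, with side of the slide and with normexp offset 16.

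Map3k12 passed without background subtraction (-0.49, limma adjusted p = 0.0379), with array weights (-0.57, adjusted p = 0.00307) and with the disagreeing array as Cre-negative crushed (-0.43, adjusted p = 0.0479). Nefl was -0.014 with processed signals, Myh11 -0.021 with Cy5 alone and Cxcl10 -0.01 without Cre-positive crushed replicate 1 (-0.01 to 0.54 over arrays left out).

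Leaving out each array gave 167 to 325 genes after crush (73 to 179 higher, 94 to 146 lower), 1 to 3 uncrushed, 81 to 121 for the difference, and -0.56 to -0.42 for Map3k12. No paired analysis was possible because the labels give no replicate numbers and do not say which retinas share a mouse. Probes near background limit folds to bounds.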
